A study of Rattus norvegicus with 88 samples.

Results

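Microglia, the resident macrophages of the brain, were followed through 7 genes they are known for, chosen by name and located by Ensembl identifier, out of 17123 genes in the table. They were Aif1 (ENSRNOG00000000853), C1qa (ENSRNOG00000012807), a second C1q chain (ENSRNOG00000012804), Tyrobp (ENSRNOG00000020845), Cd68 (ENSRNOG00000037563), Itgam (ENSRNOG00000019728) and Csf1r (ENSRNOG00000018659). The table holds identifiers without symbols, so the names are those by which the genes were picked. The second C1q chain was picked as C1qb, but a supplementary table of the study pairs its identifier with C1qc, so it is called here only the second C1q chain. All 7 were found, and none had a value of 0 in any library.

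RNA was sequenced from the orbitofrontal cortex, a frontal region dissected from both hemispheres of each rat. The animals were Heterogeneous Stock rats, an outbred population bred from inbred founder strains, and all had been group housed and were naive to behavioral and drug treatment. The 80 libraries came from 41 males and 39 females, 1 library per rat, and the only other grouping in the labels was the rat batch: batches 2 and 3 held 15 and 22 rats, batches 4 and 6 held 26 and 16, and batch 5 held 1. The labels gave no age. Both sexes were present in each batch but batch 5, with 11 males and 4 females among the rats of batch 2, 10 and 12 for batch 3, 12 and 14 for batch 4, and 8 and 8 for batch 6.

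Microglia prune synapses, clear debris and survey the tissue, and they depend on signalling through the receptor encoded by Csf1r for survival. In the healthy brain they are the main source of the complement component C1q, whose 3 kinds of chain are encoded by C1qa, C1qb and C1qc and assemble into 1 protein that tags synapses and debris. Tyrobp encodes DAP12, the adaptor through which receptors such as Trem2 signal, Itgam encodes the integrin subunit CD11b that takes up complement-tagged material, Cd68 encodes a lysosomal membrane protein, and Aif1 encodes the actin-bundling protein Iba1. Other macrophages of the brain borders and blood monocytes also use these genes, so they mark a family of cells rather than microglia alone.

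The stretches of genome upstream of these genes are shown for 3 of them, since C1qa belongs to the pair with the closest co-variation, and Cd68 and Itgam form the next closest pair, described further on. Capitals mark GAGGAA, a core bound by PU.1, the ETS factor on which macrophage gene programs depend, on either strand (TTCCTC on the other); no other motif was searched. Each window is 300 bases of RefSeq sequence on build GRCr8, from 250 bases before the start of the gene to 50 after it, written in the direction of the gene. The C1qa window lies at chr5:154419884-154420183 on the minus strand, that of Cd68 at chr10:54882392-54882691 on the minus strand and that of Itgam at chr1:192089342-192089641 on the plus strand.
C1qa: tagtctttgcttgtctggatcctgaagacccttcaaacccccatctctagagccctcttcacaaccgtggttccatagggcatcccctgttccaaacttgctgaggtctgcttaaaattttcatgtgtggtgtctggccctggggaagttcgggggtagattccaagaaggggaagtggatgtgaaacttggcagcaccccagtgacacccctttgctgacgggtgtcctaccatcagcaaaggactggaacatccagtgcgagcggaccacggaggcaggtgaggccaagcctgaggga
Cd68: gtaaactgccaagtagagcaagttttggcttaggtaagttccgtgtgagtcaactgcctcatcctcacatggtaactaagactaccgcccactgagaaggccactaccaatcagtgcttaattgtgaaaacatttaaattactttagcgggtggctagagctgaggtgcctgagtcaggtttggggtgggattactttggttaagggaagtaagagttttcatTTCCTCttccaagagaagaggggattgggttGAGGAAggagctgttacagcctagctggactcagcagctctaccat
Itgam: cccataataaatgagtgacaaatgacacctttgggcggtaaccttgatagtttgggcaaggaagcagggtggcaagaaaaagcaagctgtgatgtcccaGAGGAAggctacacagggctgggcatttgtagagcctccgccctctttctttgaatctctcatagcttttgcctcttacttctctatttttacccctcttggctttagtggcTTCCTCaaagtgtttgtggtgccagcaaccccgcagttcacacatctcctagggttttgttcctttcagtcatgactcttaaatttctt
The Cd68 and Itgam windows each hold 2 copies of the core, and the C1qa window holds 0. Windows were matched by symbol for 5 of the 8 symbols looked for (both C1qb and C1qc were tried), and 4 of the 5 hold the core (C1qb, Cd68, Itgam and Csf1r), against 27.6% of all 33469 windows. C1qb belongs to the genes followed here only if the second chain is C1qb and not C1qc. No window was found by symbol for Aif1, C1qc and Tyrobp. In the RefSeq annotation C1qb, C1qc and C1qa are consecutive genes on the chromosome.

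The deposited values are log2(normalized count + 1), where the authors scaled each library by an upper quartile adjustment. Levels below are normalized counts or this log2 value. They are not per transcript length, so a gene can be compared between rats but not with another gene. The depth behind them, recovered from the steps between low values, ran from 5676953 to 25601376 reads per library with a mean of 18098809 ± 3659819 (SD, n = 80), and library-to-library correlations over all genes ran from 0.938 to 0.984. Marker genes of other cell types, and of the cortex itself, were not examined: the reference tables used here pair no identifier with a symbol, and the symbols that the study's supplement gives for some identifiers were not used for this.

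Among the 80 rats, the highest normalized count was from 2.33 times (Csf1r) to 3.64 times (Itgam) the lowest, Cd68 apart. Csf1r had 144 normalized counts in its lowest library, 222.5 at the median and 335 in its highest, with a mean log2 value of 7.79 ± 0.20 (SD, n = 80). Tyrobp had 67, 126.5 and 210, with a mean log2 value of 6.98 ± 0.32. Itgam had 92, 170.5 and 335, with a mean log2 value of 7.38 ± 0.42. In each of these genes the highest and the lowest rat belonged to batch 3, 4 or 6.

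The C1q chains were read at higher counts and so with less counting error. C1qa had 451 normalized counts in its lowest library, 830.5 at the median and 1239 in its highest, with a mean log2 value of 9.66 ± 0.30 (SD, n = 80). The second chain had 187, 387.5 and 539, with a mean log2 value of 8.56 ± 0.34. The difference of their log2 values within a rat, whose size has no meaning without transcript lengths, varied from rat to rat with an SD of 0.195 (n = 80; range 0.67 to 1.79). The spread of this difference was smaller than that of either chain.

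Aif1 had 111 normalized counts in its lowest library, 177.5 at the median and 275 in its highest, with a mean log2 value of 7.51 ± 0.30 (SD, n = 80). Cd68 was the sparsest gene, with 5, 16 and 37 normalized counts, and a mean log2 value of 4.16 ± 0.53. The shallowest library, male 1 of batch 2, held 2 Cd68 reads, and single-rat values of this gene rest on few reads throughout.

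**Figure D1:**
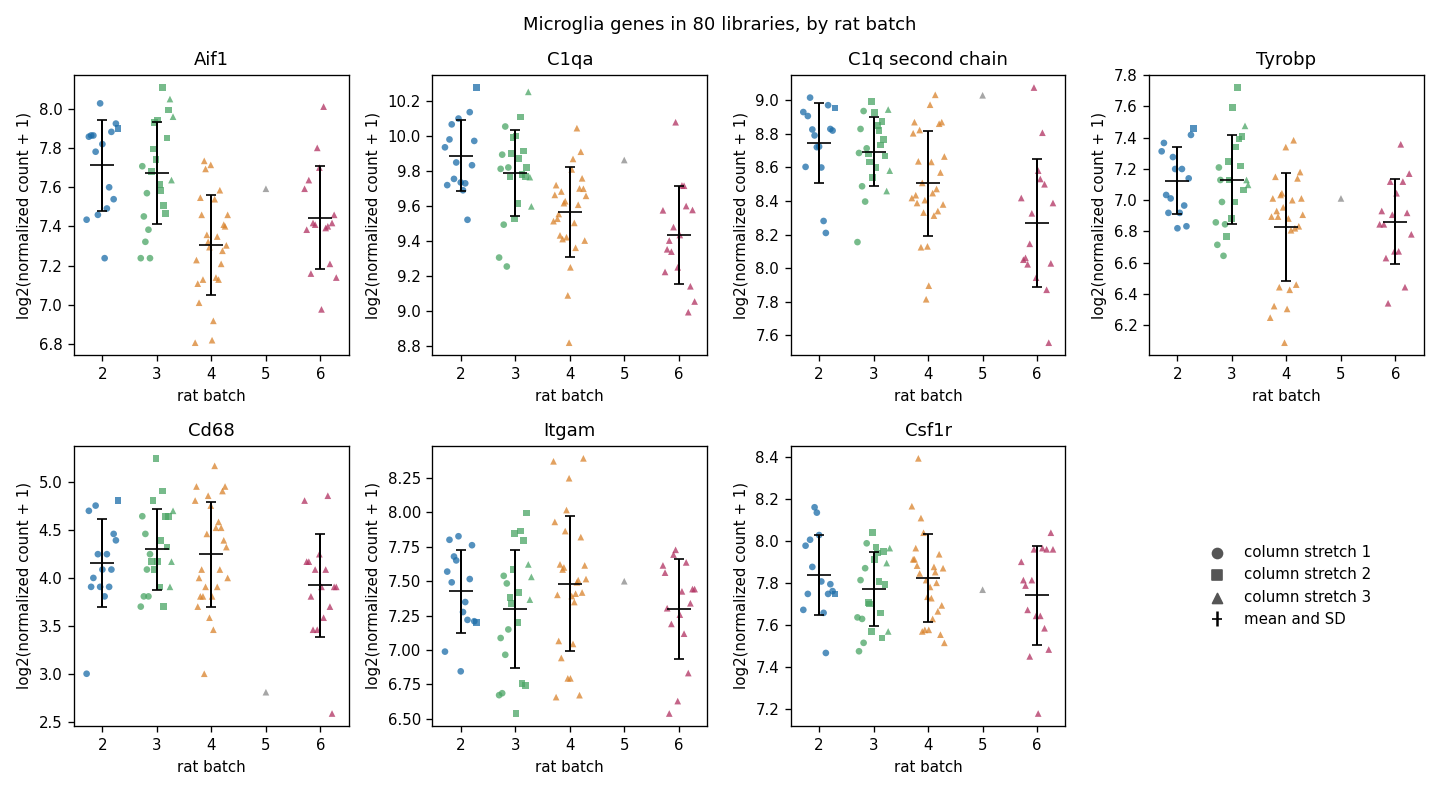
Log2(normalized count + 1) of each of the 7 genes (vertical axes, each with its own range) by rat batch (horizontal axes), with 1 point per library, marker shape for the stretch of table columns and black bars for the mean and SD. Batches 4 and 6 sit below batches 2 and 3 in Aif1, C1qa, the second C1q chain and Tyrobp, with overlap, while the means of these 4 batches lie between 7.30 and 7.48 in Itgam and between 7.74 and 7.84 in Csf1r.

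Whether these levels differed between rat batches was tested first. Aif1, C1qa, the second C1q chain and Tyrobp did. In each of them the means of batches 4 and 6 lay below those of batches 2 and 3, with overlap between rats. With limma on all 17123 genes (F test over batches 2, 3, 4 and 6, 79 rats, sex as a covariate), 4 of 7 genes passed an adjusted p of 0.05, against 64.7% of all genes tested. The share among the 7 is near that of the table at large and is no result about microglia genes as a group. What lies behind the batch differences was not tested. Fewer microglia and less RNA of these genes per microglial cell cannot be told apart in bulk tissue, and batch also moved with column order and depth, described below.

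In C1qa the median fell from 921 and 900 normalized counts in batches 2 and 3 to 781.5 in batch 4 and 683.5 in batch 6. The batch means spanned 0.46 on the log2 scale (limma adjusted p = 4.49e-06). Batch 6 was lower than batch 2 by 0.46 ± 0.089 (SE), a ratio of 0.727, and 15 of its 16 rats lay below the median of batches 2 and 3. The groups overlapped, since 5 of the 16 fell below the lowest of the 37 rats of batches 2 and 3.

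The second C1q chain had medians of 451, 415, 351 and 301 normalized counts in batches 2, 3, 4 and 6, and the batch means spanned 0.48 (limma adjusted p = 5.92e-05). Its largest difference was again between batches 6 and 2, a log2 value of -0.48 ± 0.10 (SE). The difference between batches 4 and 3, -0.19 ± 0.083, did not pass (limma adjusted p = 0.0571). The single rat of batch 5, female 18, had 522 normalized counts, the third highest of all.

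In Aif1 the order was different, with batch 4 lowest: the medians were 225 and 201 normalized counts in batches 2 and 3, 158 in batch 4 and 169.5 in batch 6 (span 0.41, limma adjusted p = 5.48e-06). Batch 4 lay 0.41 ± 0.084 (SE) below batch 2 on the log2 scale, and 24 of its 26 rats were below the median of batches 2 and 3. Neither Aif1 nor the C1q chains differed between batches 6 and 4 by more than the test could call (limma adjusted p = 0.257 for Aif1, 0.278 for C1qa and 0.0685 for the second chain).

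Tyrobp had a mean log2 value of 7.12 in batch 2 and 7.13 in batch 3, against 6.83 in batch 4 and 6.86 in batch 6 (span 0.30, limma adjusted p = 0.00149). Batch 4 differed from batch 3 by -0.30 ± 0.085 (SE) on the log2 scale, and batch 6 from batch 3 by -0.27 ± 0.096. Of the 26 rats of batch 4, 21 lay below the median of batches 2 and 3, as did 14 of the 16 rats of batch 6.

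Cd68, Itgam and Csf1r did not pass (limma adjusted p = 0.171, 0.417 and 0.553). Csf1r had medians of 221, 222, 226.5 and 222 normalized counts in batches 2, 3, 4 and 6, and the 95% interval of batch 4 minus batch 2 was -0.14 to 0.13 on the log2 scale. That interval leaves out the differences measured in Aif1, C1qa and Tyrobp, although the differences between genes were not themselves tested. For Itgam the same interval was -0.21 to 0.33, which also leaves them out, and for Cd68 it was -0.25 to 0.41. For batch 6 minus batch 2, however, the Itgam interval was -0.42 to 0.18. It holds the differences of Aif1 (-0.27) and Tyrobp (-0.27) for that pair of batches, but not that of C1qa (-0.46). Cd68 was lowest in batch 6, at a log2 difference of -0.37 ± 0.17 (SE) from batch 3 (95% interval -0.70 to -0.05, limma adjusted p = 0.0516) and of -0.32 ± 0.16 from batch 4 (0.173), sizes like those of the called genes that did not pass.

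**Figure D2:**
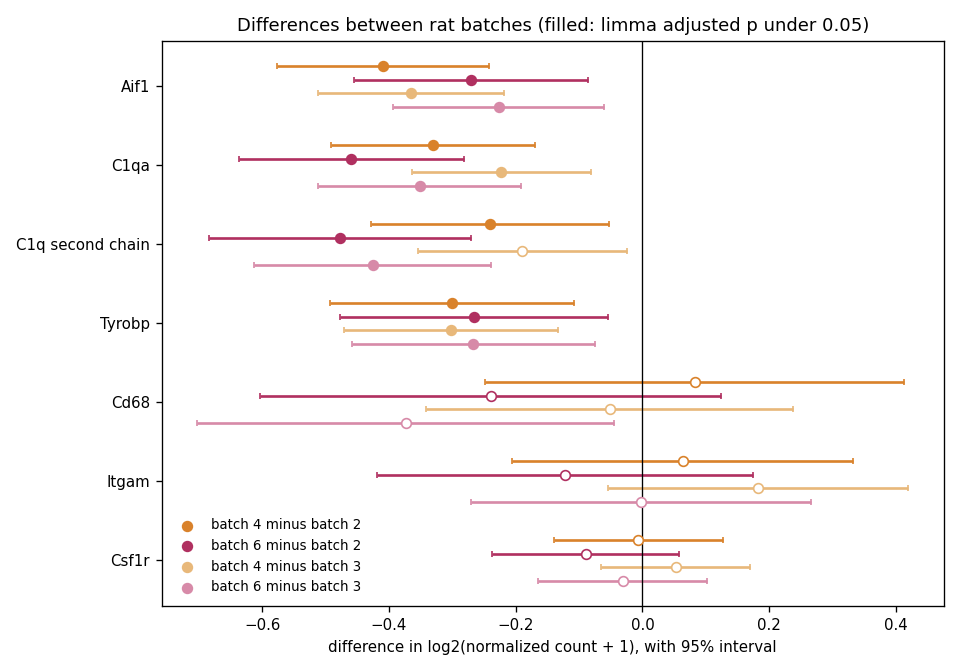
Difference in log2(normalized count + 1) between rat batches (horizontal axis, with 95% intervals) for each gene (vertical axis), by pair of batches; filled points passed a limma adjusted p of 0.05 over all genes. All filled points lie below 0 and belong to Aif1, C1qa, the second C1q chain and Tyrobp, and those of Csf1r lie between -0.09 and 0.05.

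By pair of batches, 4 of 7 genes were called lower in batch 4 than in batch 2, where 24.1% of all genes were called lower (48.6% in either direction), and 4 of 7 in batch 6 than in batch 2, where 26.6% of all genes were called lower (53.8% in either direction). Against batch 3 the counts were 3 of 7 for batch 4 (21.6% of all genes lower, 42.9% in either direction) and 4 of 7 for batch 6 (25.1% lower, 50.9% in either direction). Between batches 3 and 2, and between 6 and 4, limma called 0 of 7, with 9.79% and 13.6% of all genes called.

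The batches also divide by where their columns stand in the table. The columns fall into 3 stretches of 21, 13 and 46 libraries, each starting where the rat identifiers begin again from a low value; what a stretch stands for is not stated. Batch 2 has 14 of its 15 rats in the first stretch, batches 4 and 6 lie wholly in the third, and batch 3 is spread over 7, 12 and 3 rats. With the stretch as a further term, limma called 2 of 7 genes (18.6% of all genes): Aif1 (adjusted p = 0.00337) and C1qa (0.0255). The second chain (0.0863) and Tyrobp (0.140) no longer passed. The spans of the batch estimates were not smaller in that fit: 0.85 for Aif1, 0.69 for C1qa, 0.53 for the second chain and 0.61 for Tyrobp. Spans also grew in genes that did not pass, from 0.19 to 0.47 in Itgam and from 0.09 to 0.16 in Csf1r. A span widens with the error of its estimates, so its size alone does not show that a batch difference was kept. Batches 4 and 6 share no stretch with batch 2, so that fit separates batch from stretch only through the rats of batch 3.

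Inside a stretch, limma called 0 of the 7 genes in either comparison that the table allows with 5 or more rats a side. Batches 6 and 4 inside the third stretch called 13.7% of all genes and batches 3 and 2 inside the first 1.94%, and over both comparisons 5 results had an unadjusted p under 0.05. These were the second chain, lower in batch 6 than in batch 4 by a log2 difference of -0.24 ± 0.11 (SE), and Aif1, C1qa, Itgam and Csf1r, all lower in batch 3 than in batch 2. The Itgam difference was the largest, -0.53 ± 0.15 (limma adjusted p = 0.0578).

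Only 3 rats of batch 3 shared the third stretch with batches 4 and 6; they, and the stretches inside batch 3, were compared after the values had been seen. Their Aif1 was 198, 248 and 264 normalized counts, against 111, 158 and 212 for the lowest, median and highest of the 26 rats of batch 4, a log2 difference of -0.58 ± 0.16 (SE) for batch 4 minus batch 3. In that comparison, which limma called for 0 of 17123 genes, Aif1 had an adjusted p of 0.188 and was the only one of the 7 with an unadjusted p under 0.05. Inside batch 3 the same gene was higher in the second stretch than in the first by 0.35 ± 0.099 (limma adjusted p = 0.0653), in a comparison that called 1.9% of all genes and 0 of the 7. Tyrobp was higher there by a like amount, 0.36 ± 0.12 (limma adjusted p = 0.119). The 7 rats of batch 3 in the first stretch had a mean Aif1 log2 value of 7.42, beside 7.31 and 7.44 in batches 4 and 6. Their Tyrobp mean was 6.91, beside 6.83 and 6.86. Their C1qa mean was 9.66, above 9.56 and 9.43, and their second chain mean was 8.60, above 8.51 and 8.27. Between the third and the second stretch inside batch 3, where 7.93% of all genes were called, limma called 0 of the 7 and none had an unadjusted p under 0.05, with differences of 0.12 ± 0.14 for Aif1, 0.05 ± 0.12 for C1qa, -0.10 ± 0.11 for the second chain and 0.05 ± 0.16 for Tyrobp. Depth moved with batch as well, from 16109579 ± 3922476 reads in batch 3 to 19960946 ± 2100404 in batch 6 (SD). With the log2 depth as a covariate limma called 4 of 7 genes, and 61.4% of all genes.

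No difference between the sexes was found in the 7 genes. Male minus female differences ran from -0.03 to 0.04 on the log2 scale with standard errors from 0.047 to 0.12. Limma called 0 of 7, against 0.117% of all genes; 0 of 7 had an unadjusted p under 0.05, and voom on recovered reads also called 0. The Csf1r interval was -0.06 to 0.13 and that of C1qa -0.14 to 0.08, and for Cd68 it was wider, -0.26 to 0.20. Some other fits gave values beyond these intervals, none of them called: Csf1r was 0.24 in batch 6 alone and 0.31 with 20 principal components removed, C1qa was -0.25 in batch 2 alone, and Cd68 was -0.42 with the 20 components removed. Whether the sex difference varied between batches was tested by an interaction, for which limma called 0 of 7 genes and 0 of 17123, and none of the 7 had an unadjusted p under 0.05.

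Rats of the same sex and batch still differed from each other. The SD among them, on the log2 scale, was 0.25 for C1qa, 0.29 for the second chain and 0.42 for Itgam, and it was 0.20 for Csf1r, 0.26 for Aif1 and 0.29 for Tyrobp. The median over all genes was 0.23. Since low genes vary more, each was ranked among genes within 0.5 of its mean log2 value: Itgam stood at percentile 93.7, C1qa at 90.8 and the second chain at 90.3.

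The remaining genes were less extreme for their level. Aif1 and Tyrobp stood at percentiles 66.4 and 66.3, Csf1r at 43.9 and Cd68 at 26.4, so 5 of 7 lay above the median of genes of like level. Counting reads gives an SD of its own, which was 4.55% of the variance in C1qa, 7.17% in the second chain and 7.99% in Itgam. In Csf1r it was 25.5%, and in Cd68 it was 56.1%, the larger part of the variance. No gene's correlation with depth passed the test: the largest Pearson's r with log2 depth was -0.15 (Spearman's rho = -0.15, adjusted permutation p = 0.671 for both, 7 genes), for the second chain. The largest rho was -0.17, for C1qa (adjusted permutation p = 0.671). Inside single batches, where it was not tested, r could differ in sign. For Cd68 it was 0.66, 0.003, -0.33 and -0.48 in batches 2, 3, 4 and 6. For Itgam it was 0.48, -0.26, 0.002 and 0.44.

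**Figure D3:**
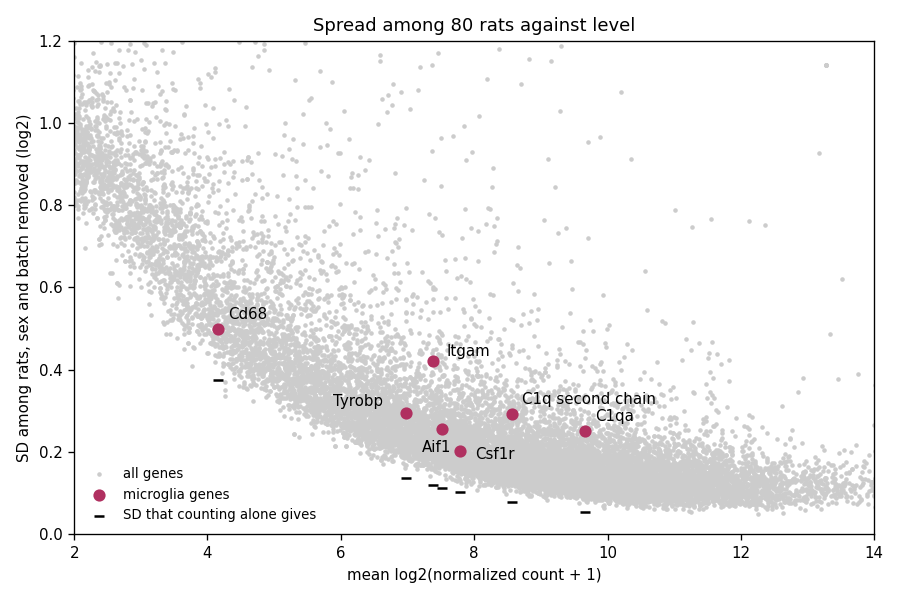
SD among 80 rats after sex and batch were removed (vertical axis, log2 scale) against mean log2(normalized count + 1) (horizontal axis) for all genes in grey and the microglia genes in red, with black dashes for the SD that counting alone gives; genes outside the axes are not drawn. Itgam, at 0.42, and both C1q chains, at 0.25 and 0.29, lie above most genes of like level (percentiles 93.7, 90.8 and 90.3). Csf1r, at 0.20, lies inside the bulk.

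Batch accounted for 32.6% of the variance of Aif1 left after sex, 32.5% of C1qa, 28.9% of the second chain and 20.3% of Tyrobp. It accounted for 15.4% in Cd68, 4.15% in Itgam and 3.14% in Csf1r. These shares are not adjusted for the number of batches, and what unrelated values would give was not computed. The shares cover all 80 rats, so the single rat of batch 5 counts as a batch of its own. In Cd68 that rat had a log2 value of 2.81, the second lowest, against a mean of 4.16. It adds to the 15.4%, and the share without it was not computed. For Itgam, the gene of the 7 that ranked highest in spread for its level, nearly all of the variance lay inside batches.

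Co-variation was measured across 79 rats, the single rat of batch 5 left out, after the means of sex and batch were removed. All 21 pairs of the 7 genes had a positive Pearson's r, with a median of 0.176, where all pairs of genes in the table were positive in 49.9% of cases. In a permutation test within batches, 5 of 21 pairs passed an adjusted p of 0.05 (42 values adjusted together, r and rho). The smallest r among the 5 was 0.292, a size that 12.7% of all gene pairs reach in either direction and 6.69% reach as a positive r. The 16 other pairs did not pass, and 5 of these had an r under 0.1, 4 of them pairs with Csf1r.

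The closest pair was C1qa with the second C1q chain, at r = 0.756 and rho = 0.739. Each adjusted permutation p was 0.00021, from a raw p of 1e-05 that is the smallest these permutations can give. Inside batches r was 0.731, 0.665, 0.793 and 0.773 for batches 2, 3, 4 and 6, and without the 2 rats farthest from the median of C1qa it was 0.731. Only 0.0274% of all gene pairs had an r as high, and each of the pair was the other's highest correlate among 14802 genes with a mean log2 value of at least 3. The chains are parts of 1 protein and neighbours on the chromosome.

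Cd68, the lysosomal gene, went with Itgam, the complement receptor subunit, at r = 0.429 and rho = 0.440 (adjusted permutation p = 0.00178 and 0.00126). The pair was positive in all 4 batches, at 0.266, 0.611, 0.513 and 0.208, and r was 0.489 without the 2 farthest rats. Among 14802 genes Itgam ranked 7th for Cd68 and Cd68 27th for Itgam. Neither of these genes was called between batches.

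Tyrobp went with the second chain at r = 0.404 and rho = 0.339 (adjusted permutation p = 0.00361 and 0.0146) and with C1qa at r = 0.376 and rho = 0.379 (0.0063 and 0.00581). Inside batches the first ran from -0.000626 in batch 2 to 0.512 in batch 4, and the second from 0.182 in batch 4 to 0.633 in batch 3. Without the 2 farthest rats they were 0.448 and 0.508. With 20 principal components of the table removed, neither passed (r = 0.0526 and 0.0195, adjusted permutation p = 0.888 and 0.943).

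Aif1 with C1qa was the weakest of the called pairs, at r = 0.292 and rho = 0.304 (adjusted permutation p = 0.0449 and 0.0345; r = 0.272 without the 2 farthest rats). It did not hold inside every batch: r was 0.478, 0.570 and 0.551 in batches 2, 3 and 6 and -0.187 in batch 4. With the column stretch also removed it no longer passed (r = 0.220, adjusted permutation p = 0.233).

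Csf1r had the lowest correlations. Its r with the other genes ran from 0.03 for C1qa to 0.17 for Itgam, and none of its 6 pairs passed. The first principal component of the 7 genes held 34.9% of their variance, where an even share among 7 components is 14.3%. A first component is the largest by construction, and what unrelated genes would give was not computed for any component. Its weights ran from 0.43 to 0.50 on Tyrobp and both C1q chains, and the weight was 0.13 on Csf1r. On the second component, with 18.7%, the C1q chains (-0.44 and -0.38) lay opposite to Itgam (0.57) and Cd68 (0.44).

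**Figure D4:**
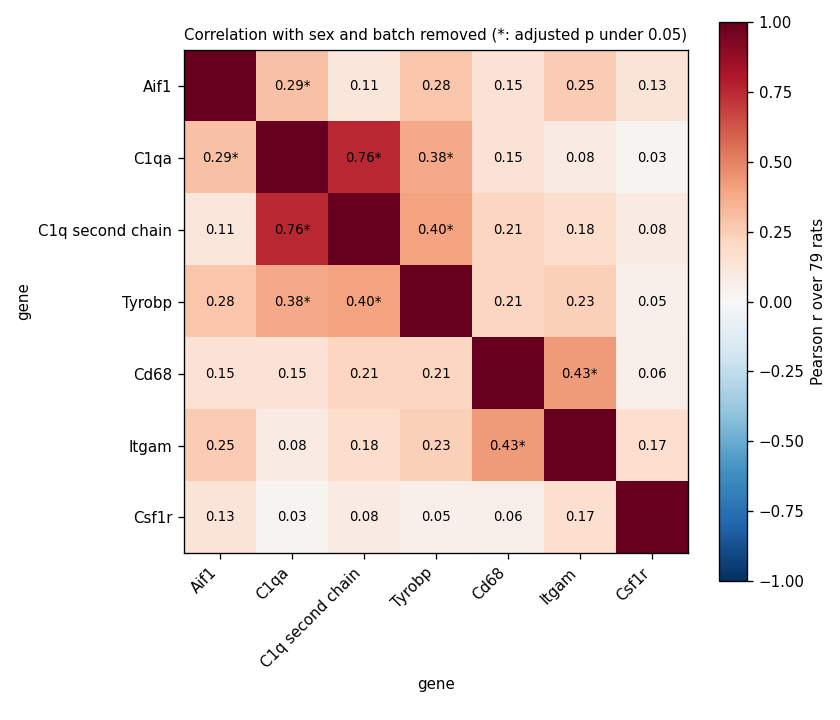
Pearson's r across 79 rats for every pair of the 7 genes (both axes list the genes), after sex and batch means were removed, on a colour scale from -1 to 1, with a star where the adjusted permutation p was under 0.05. The block of C1qa, the second chain and Tyrobp (0.376 to 0.756) and the pair of Cd68 with Itgam (0.429) stand out, and the row of Csf1r is pale throughout.

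**Figure D5:**
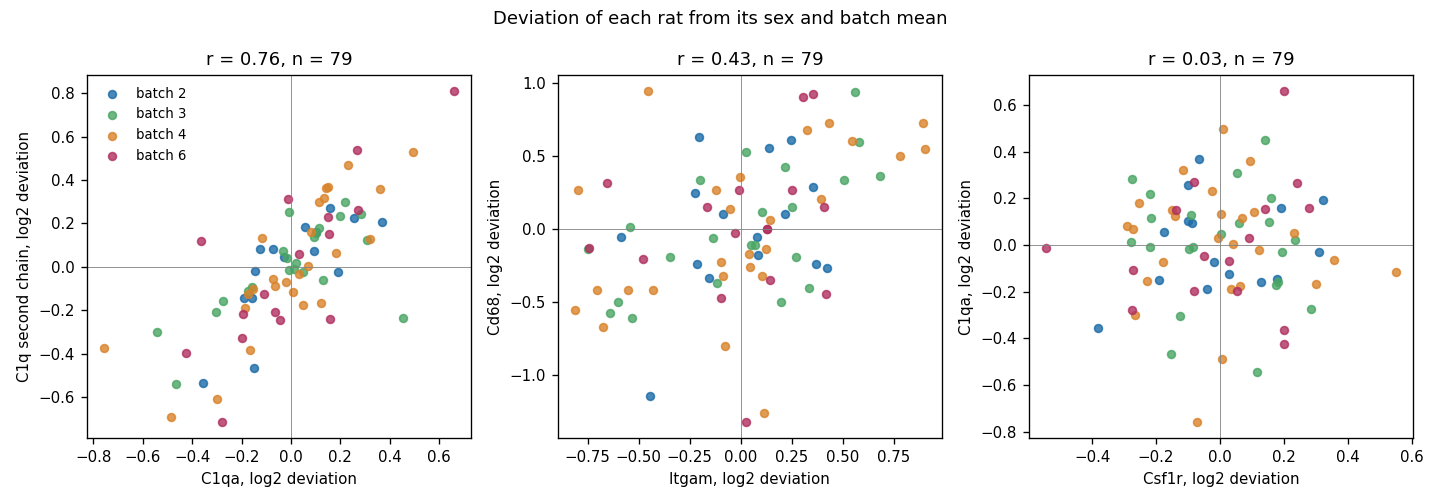
Deviation of each rat from its sex and batch mean, in log2 units, for 3 pairs of genes, with points coloured by batch. The C1q chains rise together in every batch (r = 0.756), Itgam and Cd68 do so more loosely (r = 0.429), and C1qa shows no slope on Csf1r (r = 0.03).

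Some rats, picked from the extremes of single genes, show a split between genes. Female 30 of batch 3 had the highest Aif1 (275 normalized counts) and the highest Tyrobp (210), with the 4th highest C1qa (1102), yet its Csf1r ranked 39th (223). Female 3 of batch 4 had the lowest Aif1 (111) and the second lowest Tyrobp (75), but the second highest Itgam (330) and the second highest Csf1r (286). These 2 rats lie at opposite ends for Aif1 and Tyrobp RNA and on the same side for Itgam, where female 30 ranked 7th (232).

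Female 26 of batch 4 had the lowest C1qa of all rats (451 normalized counts) beside the third highest Itgam (303). Female 13 of batch 3 was the reverse, with the 10th highest C1qa (1023) beside 1 of the 2 lowest Itgam values (92). Male 30 of batch 6 had the lowest second chain (187) and the lowest Cd68 (5), with Aif1 at rank 48 (170). Female 6 of batch 3 had the second highest Aif1 (264) and C1qa (1218) while its second chain ranked 52nd (351), which made it the rat where the C1q chains lay farthest apart. In the rats named so far, rank depended on the gene. Not every rat was split in this way: male 25 of batch 4 ranked between 61st and 79th in all 7 genes.

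The mean of the 7 standardized levels per rat gave a summary with each gene weighted equally. It was 0.39 ± 0.45 and 0.25 ± 0.49 for batches 2 and 3, against -0.16 ± 0.53 and -0.45 ± 0.60 for batches 4 and 6 (SD). It was 0.03 ± 0.60 in males and -0.03 ± 0.60 in females. The batches overlapped, with a lowest rat of -1.57 in batch 4 and a highest of 1.32 in batch 3.

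Among 14796 other genes with a mean log2 value of at least 3, the gene whose r was highest on average over the 7 was ENSRNOG00000008465 (mean r = 0.417 over 79 rats), followed by ENSRNOG00000018414 (0.416). Both correlated with Tyrobp (0.569 and 0.481) and the second chain (0.473 and 0.560) more than with Csf1r (0.179 and 0.295). The lowest means belonged to ENSRNOG00000055278 (-0.333) and ENSRNOG00000014791 (-0.326), and the latter had an r of -0.661 with Tyrobp and 0.05 with Csf1r. These genes are left without symbols here, and their values are descriptions of the same rats without a test.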

How the data were processed

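RNA was measured in 80 orbitofrontal cortex libraries (polyA RNA, 1 per rat). Per the labels and the study's methods, the authors used cutadapt to trim single-end reads, estimated counts per gene with RSEM (build Rnor_6.0), applied an upper quartile adjustment with DESeq2 and took log2 with a pseudocount of 1; versions are not given in the sources used here. The deposited table holds these log2 values for 17123 genes; 8 samples marked as removed were not analysed here.

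Values were turned back into normalized counts, and the count that 1 read is worth was found in each library from the spacing of values up to 300. Between 98.4% and 100% of these values were rounded multiples of the step. Any whole number meets this where the step is under 1, and nearly any does just above 1. The median step was 1.01, so for many libraries the share does not test the step. Of 40 simulated libraries, 40 gave the step within 1%. Reads recovered in this way set the depth (5676953 to 25601376 per library) and the counting SD.

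Differences were tested with limma 3.58.1 (R 4.3.3, lmFit and eBayes with a trend) over all genes, with Benjamini-Hochberg adjustment: an F test over batches 2, 3, 4 and 6 with sex as a covariate, sex with batch as a covariate, and their interaction. The single rat of batch 5 entered the sex test and the spread, not the batch test or the correlations. On simulated data with 200 genes changed by a log2 value of 1, the models recovered 100% (batch), 100% (sex) and 94.5% (interaction). That change is larger than the differences measured in the 7 genes, so the recovery does not tell the power at their sizes. Correlations used residuals and 100000 two-sided permutations within batch (Python 3.11.15, numpy 2.4.6, scipy 1.17.1). Alternatives were other pseudocounts, normalizations, weights and covariates. The 7 genes, lists and tests were chosen with earlier results of these data known. Genes named by identifier alone were those with the 2 highest and the 2 lowest mean r over the 7. Marker lists of other cell types were not run, since none of the 47357 genes in the RefSeq table carries an Ensembl identifier. Each library is a separate rat; the study aimed to avoid related rats but describes some pairs that appear closely related, and relatedness was not examined here.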

Additional observations from a re-analysis of the deposited data

Results flagged for a closer look

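In 28 groups of one gene in one batch and sex with 4 to 10 rats, 3 had a lowest rat set apart from the others by Dixon's criterion, which chance alone gives in about 1 of 20 groups. In the males of batch 3, the second C1q chain was at a log2 value of 8.15 in male 4 (284 normalized counts), and the nearest of the other 9 was at 8.58. In the males of batch 6, Itgam was at 6.83 in male 28 (113 normalized counts), the nearest of the others being at 7.30. In the same group Csf1r was at 7.48 in male 30 (178 normalized counts), the nearest being at 7.79.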

How the results depend on the processing

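No paired analysis was possible because each rat gave 1 library and its number is only a name. The count of 4 of 7 genes called by batch was kept under another pseudocount (10), a filter on low genes, 2 other normalizations, depth as a covariate, array weights, voom on recovered reads, and without the shallowest library; it became 2 with the column stretch as a factor and 0 with 20 principal components or, in a comparison added after the data were seen, for batches 4 and 6 inside the third stretch. With 20 components limma called 1 of 17123 genes. With 20 components removed 4 pairs passed, but 3 of the 5 named pairs were lost: r was 0.0195 for C1qa with Tyrobp, 0.0526 for the second chain with Tyrobp and 0.110 for Aif1 with C1qa, and 16 of 21 pairs were positive. The count of 5 pairs became 8 with nothing removed, and 0, 1 and 1 in batches 2, 4 and 6 alone, which hold fewer rats. In batch 2 alone the second chain with Tyrobp had r = -0.000626, and in batch 4 alone Aif1 with C1qa had r = -0.187. The median spread of 0.29 fell to 0.234 with 20 components.

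Differences between the sexes, none of them called, changed sign in 21 values. Aif1 was 0.0166 with array weights, 0.33 with 20 components, 0.0256 with no batch term, and 0.0527 and 0.0213 in batches 3 and 6 alone; C1qa was 0.00608 with no batch term and 0.13 in batch 4 alone. The second chain was 0.00104 with median of ratios scaling, 0.0162 with no batch term, and 0.0181 and 0.18 in batches 3 and 4 alone. Tyrobp was 0.0156 with array weights, 0.00493 with voom, 0.18 with 20 components, 0.0138 with no batch term and 0.11 in batch 4 alone, where Cd68 was 0.15. Itgam was -0.20 and -0.0409 in batches 2 and 4 alone, and Csf1r -0.11 and -0.0607 in batches 2 and 3 alone. Depth limits Cd68 most, with a median of 16 normalized counts.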
